A study of Mus musculus with 9 samples.

Results

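The genes described here are the matrix metalloproteinases, the ADAM and ADAMTS proteinases and the tissue inhibitors of metalloproteinases in the pressure-loaded right ventricle of the mouse. A gene was a member when its symbol in the array's annotation was Mmp, Adam, Adamts or Timp followed by a number and at most 1 letter, and when a probe set named that gene alone. This gave 65 members among the 18193 genes measured, namely 18 Mmp, 28 Adam, 15 Adamts and 4 Timp genes, chosen by name and not by any measured value. Of the 80 protein-coding mouse genes in the RefSeq table (assembly GRCm38.p6) whose symbols have this form, the others, such as Mmp15, Mmp28 and Adamts2, were not analysed here.

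Right ventricle myocardium was taken from male C57BL6J mice, 6 to 8 weeks old, in 9 samples: 5 after pulmonary banding and 4 after a sham operation. Pulmonary banding narrows the artery to the lungs and loads the right ventricle with pressure, and a sham operation leaves the artery open. The design text gives 5 as the number of banded and sham-operated mice, while the sources used here do not give the time since surgery. Samples carry replicate numbers, with no statement that each is a separate mouse, so the p-values measure the spread between these samples, which may in part be technical.

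Matrix metalloproteinases are zinc enzymes that cut collagens, gelatin, proteoglycans and other proteins of the extracellular matrix. Most are made as inactive proenzymes and are blocked by the tissue inhibitors, the TIMP proteins, each of which binds the active site of many of the enzymes. The ADAM proteinases sit in the cell membrane and release the outer parts of other membrane proteins, while the ADAMTS proteinases are secreted and cut proteoglycans, procollagens and microfibril proteins. In a loaded ventricle these families are known for their part in matrix turnover and fibrosis.

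Expression is given as the deposited log2 value of 1 probe set per gene. The lowest value in the table, its floor, was 2.20. A mean under 4.20, or less than 2 log2 units over the floor, is termed dim. A dim group has only an upper bound, so a fold against it is written "at least". Of the 65 members, 33 (50.8%) were dim in both groups, against 7180 of all 18193 genes (39.5%), and 17 members stood at the floor on all 9 arrays. The other 32 members were above the dim level in at least 1 group and carry the values below. Levels of different probe sets are not comparable with each other, so only differences between the groups are set side by side.

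That the samples were heart muscle was checked with defining markers: Myh6 lay between 16.1 and 16.4 and Tnnt2 between 15.7 and 15.9 on all 9 arrays. No marker that sets the right ventricle apart was looked at. Arrays of 1 group correlated with r from 0.983 to 0.997 across genes and arrays of different groups with r from 0.945 to 0.977. In the same fit, 8 of 9 fibroblast markers, 8 of 10 macrophage markers, 7 of 8 smooth muscle and pericyte markers and 5 of 8 endothelial markers were higher with banding and 1 fibroblast and 1 macrophage marker were lower, while 5 of 10 cardiomyocyte markers were lower and none higher. The mean of the fibroblast list ran from 13.1 to 13.4 with banding against 11.3 to 11.6 with sham, and that of the macrophage list from 10.5 to 11.1 against 9.63 to 9.89. Neutrophil markers were mostly dim (6 of 9), with 1 higher, and all 8 testis and epididymis markers were dim. In whole tissue, a change in the number of cells of a type and a change in RNA per cell cannot be told apart, and the part of these cells in the members' differences below was not tested.

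Liver transcripts moved with the groups. All 15 hepatocyte markers were lower with banding, and their mean was 9.91, 9.47, 8.43 and 12.5 on sham replicates 1 to 4 and between 2.59 and 4.41 with banding. The albumin gene Alb lay between 11.5 and 14.9 with sham and between 2.34 and 8.51 with banding, highest on banding replicate 5 in that group. Values of the members that fell are therefore also given without sham replicate 4, the highest array in this mean. The other sham arrays still lay above every banding array, so this does not remove the liver difference between the groups.

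With banding, 22 members rose and 5 fell at an adjusted p under 0.05 (limma, Benjamini-Hochberg over all 18193 genes). Across all genes 18.4% were higher and 20.0% lower by the same test, so that 33.8% of the members stood on the higher side and 7.69% on the lower side. Over both directions, 27 members (41.5%) passed, against 38.4% of all genes, which is close to the background. A difference of at least 1 log2 unit was passed upwards by 13 members, against 7.90% of all genes, and downwards by 3, against 5.82%. The median difference over all 65 members was 0.0048 log2 units and over all genes it was 0. In 25 members the 2 groups of arrays did not overlap (38.5%, against 36.7% of all genes), and 23 of these were among the 27 that passed. None of the 33 members dim in both groups passed.

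**Figure D1:**
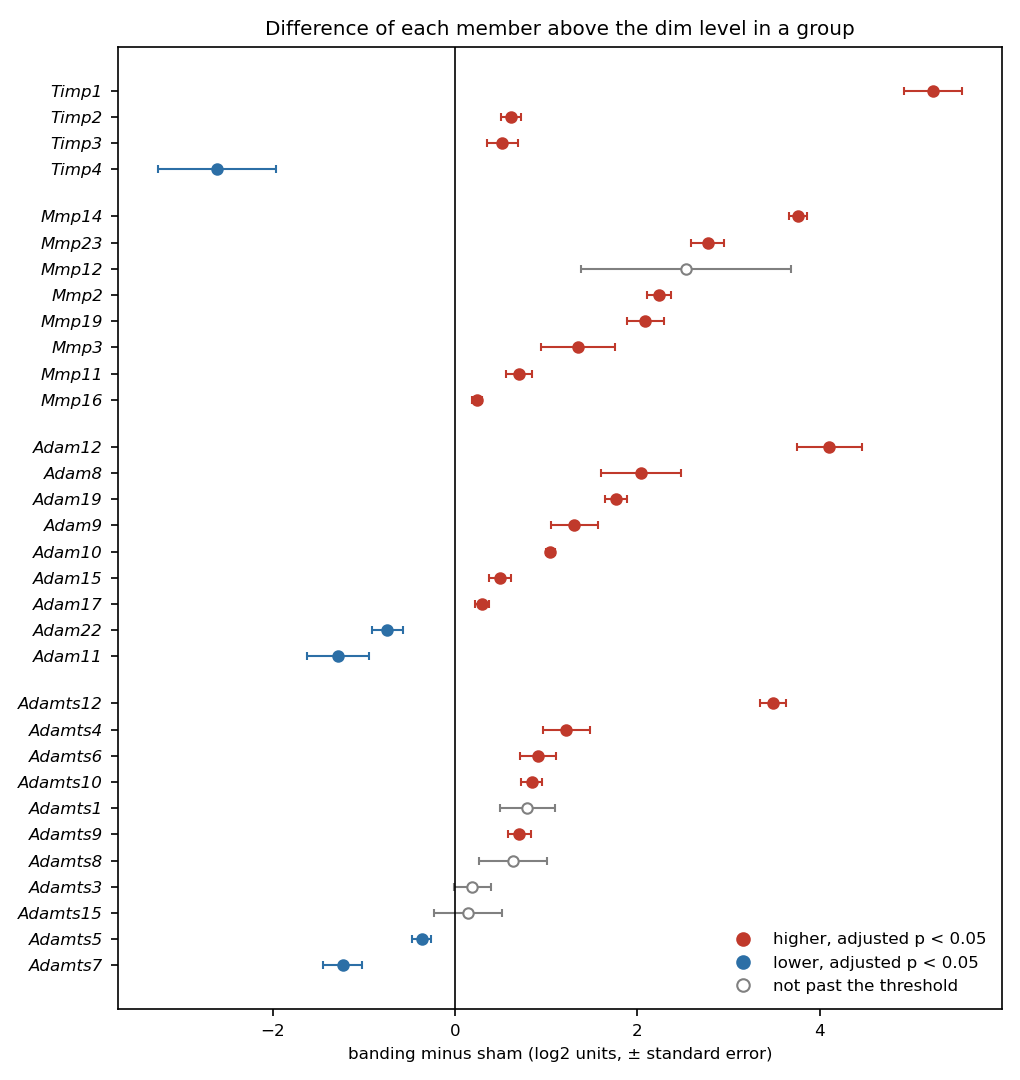
Difference between banding and sham (log2 units, points) with its standard error (bars) for the 32 members above the dim level in at least 1 group, ordered by family and size. Filled red points are the 22 members that rose, filled blue points the 5 that fell, and open points the 5 that did not pass. Timp1 stands farthest to the right at 5.24 and Timp4 farthest to the left at -2.61.

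The stretches just upstream of 6 members are shown as picked examples of the motifs counted below. They come from members that rose, a member that fell and a gene cluster that was mostly dim. The sequences are the 150 bases before the RefSeq transcription start on GRCm38.p6, 5′ to 3′ on the gene's strand, and capitals mark the motifs searched: the AP-1 site TGANTCA, the TATA box TATAAA and the GC box GGGCGG, each on both strands. Timp1 and Mmp14 rose, Timp4 fell, and Mmp3, Mmp12 and Mmp13 belong to the cluster on chromosome 9. Mmp3 is on both sides, since it rose as well. For Mmp12 the second of its RefSeq starts is shown, chosen because it holds the AP-1 match. The positions are chrX:20870016-20870165 on the + strand for Timp1, chr6:115252206-115252355 on the - strand for Timp4 and chr14:54431448-54431597 on the + strand for Mmp14. Those of the cluster genes, all on the + strand, are chr9:7445672-7445821 for Mmp3, chr9:7347224-7347373 for Mmp12 and chr9:7272364-7272513 for Mmp13.
Timp1: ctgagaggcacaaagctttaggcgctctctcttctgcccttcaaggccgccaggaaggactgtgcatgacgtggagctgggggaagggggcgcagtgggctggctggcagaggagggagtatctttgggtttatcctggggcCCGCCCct
Timp4: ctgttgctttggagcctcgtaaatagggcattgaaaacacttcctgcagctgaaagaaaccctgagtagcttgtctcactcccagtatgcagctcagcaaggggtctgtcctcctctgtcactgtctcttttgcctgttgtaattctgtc
Mmp14: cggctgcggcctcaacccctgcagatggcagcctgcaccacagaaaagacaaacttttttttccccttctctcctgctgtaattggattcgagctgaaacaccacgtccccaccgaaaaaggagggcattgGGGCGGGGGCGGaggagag
Mmp3: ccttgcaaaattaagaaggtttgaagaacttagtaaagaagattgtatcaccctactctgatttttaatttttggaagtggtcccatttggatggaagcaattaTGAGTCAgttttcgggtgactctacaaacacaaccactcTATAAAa
Mmp12: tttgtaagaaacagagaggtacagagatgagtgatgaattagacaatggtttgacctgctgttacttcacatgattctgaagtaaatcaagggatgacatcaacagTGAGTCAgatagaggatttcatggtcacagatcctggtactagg
Mmp13: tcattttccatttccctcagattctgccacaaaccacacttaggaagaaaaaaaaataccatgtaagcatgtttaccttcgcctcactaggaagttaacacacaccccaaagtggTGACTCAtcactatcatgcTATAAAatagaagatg

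Timp1 and Mmp14 carried GC boxes close to the start and neither an AP-1 site nor a TATA box in the bases shown. Timp4 held none of the 3 motifs there. Mmp3 and Mmp13 held an AP-1 site followed by a TATA box, with the AP-1 site 46 to 40 bases upstream in Mmp3 and 35 to 29 bases upstream in Mmp13. The AP-1 site of Mmp12 lay 44 to 38 bases upstream.

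RefSeq promoter windows of 300 bases (250 before and 50 after the start) were at hand for 37 members. An AP-1 match lay in 11 of the 37, against 7.81% of all 32851 windows, and 8 of those 11 were among the 9 measured Mmp genes of the chromosome 9 cluster. A TATA box lay in 12 of the 37, against 13.6% of all windows, and in all 9 of the cluster genes. The GC box lay in 17 of the 37, against 35.7% of all windows, and in none of the 9 cluster genes. It lay in 17 of the 28 matched members outside the cluster and in 12 of the 14 matched members that rose. The others of the 22 members that rose had no window. Adamts1 and Adamts3, which did not pass, also held a GC box, as did dim members such as Mmp24. Timp4 and Adam22, which fell, held none. Mmp3 and Adamts12 rose without a GC box. Members counted here may have several windows, and a match describes letters only.

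The measured genes of the cluster are, in chromosome order, Mmp13, Mmp12, Mmp1b, Mmp3, Mmp1a, Mmp10, Mmp8, Mmp20 and Mmp7, while Mmp27, which lies between Mmp8 and Mmp20, was not analysed here. These secreted enzymes include the interstitial collagenases and the stromelysins. Of the 9 genes, 7 were dim in both groups and 6 stood at the floor on all arrays. Mmp3 was the 1 gene of the cluster that passed, and Mmp12 was above the dim level on some banding arrays without passing.

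The tissue inhibitors diverged. Timp1 rose 37.7-fold, Timp2 and Timp3 rose by less than 1 log2 unit and Timp4 fell 6.11-fold. All 4 therefore passed with 3 higher and 1 lower, where 18.4% of all genes were higher and 20.0% lower. TIMP-1 blocks most secreted metalloproteinases, TIMP-2 also takes part in the activation of the gelatinase MMP-2 at the cell surface, TIMP-3 is bound to the matrix and also blocks ADAM17 and several ADAMTS enzymes, and TIMP-4 is known for its expression in the heart.

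Timp1 values were 10.46, 11.47, 10.90, 11.00 and 11.27 on banding replicates 1 to 5 and 5.98, 4.89, 6.24 and 6.02 on sham replicates 1 to 4. Every banding array lay far above every sham array, and sham replicate 2 was the lowest. The means were 11.02 ± 0.38 (SD, n = 5) and 5.78 ± 0.60 (SD, n = 4), a difference of 5.24 ± 0.32 (SE), with a limma adjusted p of 3.59e-05.

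Timp4 values were 7.93, 6.11, 6.21, 5.54 and 4.56 on the banding arrays and 9.15, 8.01, 8.46 and 9.11 on the sham arrays. The groups did not overlap, but banding replicate 1 came within 0.1 log2 units of sham replicate 2, and banding replicate 5 was the lowest. The means were 6.07 ± 1.23 (SD, n = 5) and 8.68 ± 0.55 (SD, n = 4), and Timp4 fell by 2.61 ± 0.65 on the log2 scale (limma adjusted p = 0.0144). Without sham replicate 4 it fell by 2.47 (adjusted p = 0.0418), and without sham replicate 4 and banding replicate 5 the adjusted p was 0.0578 at a difference of -2.09.

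Timp2 values were 12.43, 12.48, 12.43, 12.06 and 12.15 with banding and 11.54, 11.68, 11.73 and 11.85 with sham. All banding arrays lay above all sham arrays. The difference was 0.61 ± 0.11, or 1.53-fold (limma adjusted p = 0.00297).

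Timp3 values were 11.33, 11.71, 11.11, 11.04 and 11.13 with banding and 10.56, 10.61, 10.71 and 11.11 with sham. Sham replicate 4 reached the level of the lower banding arrays, so the groups overlapped. The difference was 0.52 ± 0.17, or 1.43-fold (limma adjusted p = 0.0457). The call of Timp3 depended on single arrays: the adjusted p was 0.0898, 0.0573, 0.0607 and 0.0639 without banding replicate 1, 2, 3 or 5, and 0.118, 0.115 and 0.0993 without sham replicate 1, 2 or 3. With every probe set tested singly it was 0.0547.

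Whether the inhibitors changed unequally was tested on the difference between 2 Timp genes within each array, over the 6 possible pairs. The Timp1 to Timp4 difference moved most, by 7.85 log2 units between the groups, and the Timp1 to Timp2 and Timp1 to Timp3 differences moved by 4.62 and 4.72. Each had an adjusted exact permutation p of 0.0159, two-sided, and a raw p of 0.00794, the smallest that 126 arrangements of 5 and 4 samples allow. Timp2 and Timp3 moved against Timp4 by 3.22 and 3.13 (adjusted exact permutation p = 0.0190 each). The Timp2 to Timp3 difference moved by 0.09 (adjusted exact permutation p = 0.373), within the spread of both groups. Averaged over all probe sets of each gene, this difference moved by 0.24 (adjusted exact permutation p = 0.0952). The Timp2 probe set used had the smallest rise of its probe sets above the dim level, so an equal change of Timp2 and Timp3 is not shown.

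**Figure D2:**
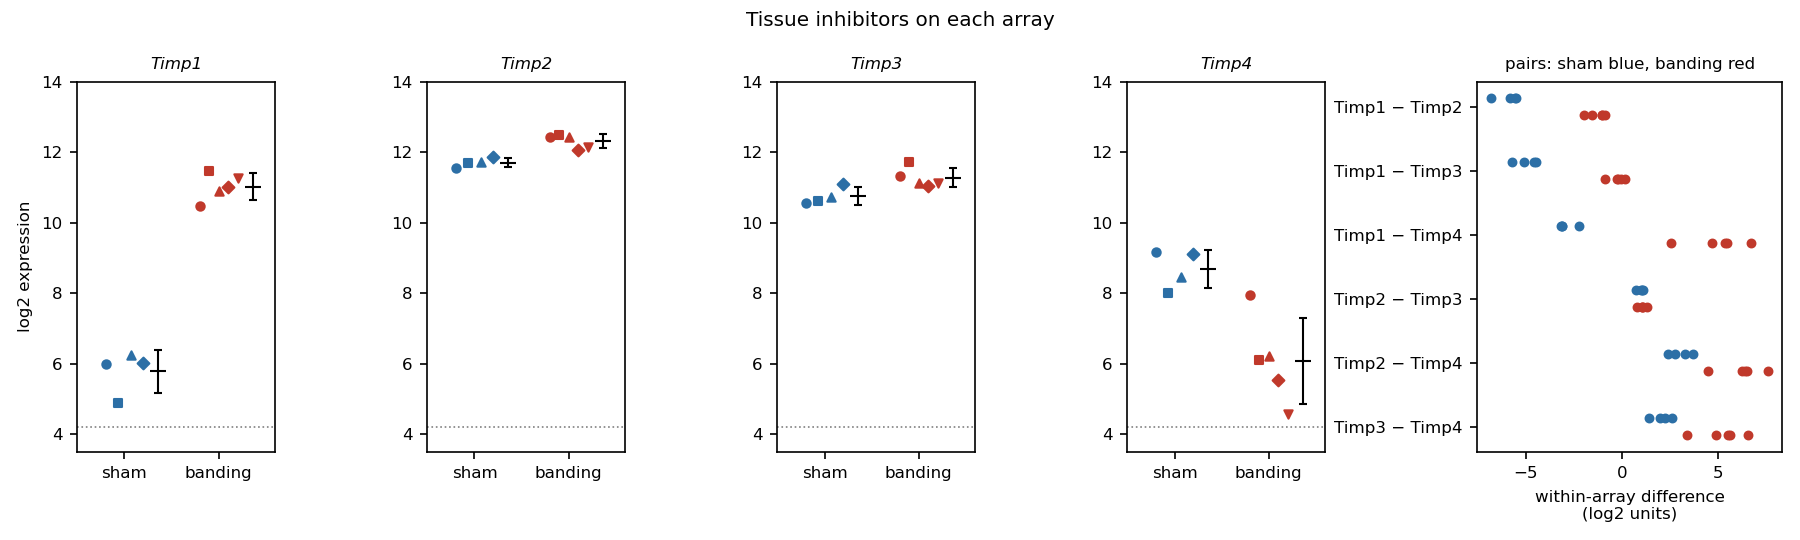
Left 4 panels, log2 expression of each Timp gene on the 4 sham arrays (blue) and the 5 banding arrays (red), with a marker shape per replicate number, the mean and SD beside them (black) and the dim level of 4.20 (dotted line). Right panel, difference between 2 Timp genes within each array: all pairs except Timp2 and Timp3 are separated between the groups.

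Among the gelatinases, Mmp2 rose and Mmp9 was dim in both groups. Mmp2 encodes the gelatinase made by fibroblasts and other stromal cells, and Mmp9 the one stored by neutrophils. Mmp2 values were 12.44, 12.40, 12.34, 11.94 and 11.92 with banding and 9.93, 9.88, 10.05 and 10.04 with sham. The sham arrays lay within 0.2 log2 units of each other and all banding arrays were higher, with replicates 4 and 5 the lowest of them. The difference was 2.23 ± 0.13, or 4.70-fold (limma adjusted p = 3.21e-05). Mmp9 ranged from 3.52 to 3.95 with banding and from 3.83 to 4.0 with sham.

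Among the 4 metalloproteinases measured that were listed as membrane-anchored, Mmp14 and Mmp16 rose and Mmp17 and Mmp24 were dim. Mmp23, whose product is also anchored before its release, was listed apart and is given below. Mmp14 encodes the enzyme that cleaves fibrillar collagen at the cell surface and activates the proenzyme of Mmp2. Mmp14 values were 10.66, 10.84, 10.66, 10.94 and 10.80 with banding and 7.07, 6.85, 7.26 and 6.92 with sham. Both groups were tight and far apart. The difference was 3.76 ± 0.098, or 13.5-fold, with the smallest adjusted p of the members (limma, 2.54e-06). Mmp16, a related membrane enzyme, ranged from 4.26 to 4.49 with banding against 4.08 to 4.24 with sham, close to the dim level. Its difference was 0.25 ± 0.056, at least 1.14-fold (limma adjusted p = 0.00979). It no longer passed when its probe sets were averaged (adjusted p = 0.155), the others being dim in both groups, or after quantile normalisation (adjusted p = 0.0798).

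Of the stromelysins and matrilysin, Mmp3 and Mmp11 rose and Mmp7 and Mmp10 stood at the floor on all arrays. Mmp3 encodes a stromelysin that cuts proteoglycans and activates other proenzymes. Mmp3 values were 7.68, 8.46, 7.72, 6.57 and 7.14 with banding and 6.49, 5.81, 5.67 and 6.70 with sham. Banding replicate 4 lay below sham replicate 4, so the groups overlapped. The difference was 1.35 ± 0.41, or 2.54-fold (limma adjusted p = 0.0335). The adjusted p of Mmp3 was 0.0701, 0.0533 and 0.0721 without banding replicate 1, 2 or 3, and 0.0532, 0.0903 and 0.0899 without sham replicate 1, 2 or 3. Mmp11, whose product is activated inside the secretory pathway, ranged from 6.36 to 6.89 with banding and from 5.60 to 6.11 with sham, a difference of 0.71 ± 0.14, or 1.63-fold (limma adjusted p = 0.00522).

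The 4 collagenases measured, Mmp1a, Mmp1b, Mmp8 and Mmp13, were dim in both groups, and the first 3 stood at the floor on all 9 arrays. Mmp13 did not exceed 2.55 with banding or 2.85 with sham. A dim probe set does not show that a transcript is absent.

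Of the remaining metalloproteinases, Mmp23 and Mmp19 rose, Mmp12 did not pass and Mmp20 stood at the floor. Mmp23 encodes an enzyme that is anchored by its N-terminal end and released by cleavage. Mmp23 values were 9.33, 10.06, 9.35, 9.64 and 9.75 with banding and 6.69, 7.11, 7.00 and 6.61 with sham. The groups were well separated, and the difference was 2.77 ± 0.18, or 6.83-fold (limma adjusted p = 4.61e-05).

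Mmp19 values were 5.26, 5.48, 5.84, 5.09 and 5.84 with banding and 3.25, 3.34, 3.80 and 3.28 with sham. The sham arrays were all dim and the banding arrays all above the dim level. The difference was 2.09 ± 0.20, at least 2.47-fold (limma adjusted p = 0.000187), and 1.31 with all values raised to the dim level.

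Mmp12 encodes the elastase of macrophages. Mmp12 values were 5.65, 4.37, 5.71, 3.69 and 9.66 with banding and 3.66, 3.55, 3.09 and 2.83 with sham. No banding array lay below a sham array, but banding replicate 5 stood far above the others. The difference was 2.53 ± 1.15 (limma adjusted p = 0.134), and 1.57 without banding replicate 5 (adjusted p = 0.0556).

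Of the 9 somatic ADAM proteinases, 7 rose, none fell and Adam28 and Adam33 were dim in both groups. Over all 28 Adam genes, 25% rose and 7.14% fell, against 18.4% of all genes higher and 20.0% lower. The largest difference was that of Adam12, which encodes meltrin alpha, a proteinase of mesenchymal cells and regenerating muscle. Adam12 values were 7.28, 8.46, 8.11, 7.69 and 7.56 with banding and 2.89, 3.55, 4.23 and 4.20 with sham. Sham replicates 1 and 2 were dim, replicates 3 and 4 lay just above the dim level, and all banding arrays were far higher. The difference was 4.11 ± 0.35, at least 12.3-fold (limma adjusted p = 0.000125).

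Adam19 encodes meltrin beta, which sheds neuregulins. Adam19 values were 9.45, 9.20, 9.11, 9.40 and 9.22 with banding and 7.78, 7.57, 7.47 and 7.22 with sham. The groups were separate, with a difference of 1.76 ± 0.12, or 3.40-fold (limma adjusted p = 5.57e-05).

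Adam8 is known from leukocytes. Adam8 values were 4.36, 5.12, 5.49, 5.46 and 6.79 with banding and 3.28, 3.53, 3.53 and 3.28 with sham. Banding replicate 5 was the highest and replicate 1 the lowest, and every sham array was dim. The difference was 2.04 ± 0.44, at least 2.37-fold (limma adjusted p = 0.00726). With all values raised to the dim level it was 1.25 (adjusted p = 0.0613).

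Adam9 values were 11.52, 12.08, 11.82, 12.67 and 12.71 with banding and 10.78, 10.88, 10.85 and 10.89 with sham. The sham arrays were close together and the banding arrays spread over more than 1 log2 unit, with replicates 4 and 5 highest. The difference was 1.31 ± 0.26, or 2.48-fold (limma adjusted p = 0.00492).

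Adam10 and Adam17 encode the main sheddases of cell-surface proteins, the first of Notch and its ligands and the second of tumour necrosis factor and its receptors. Adam10 values were 11.71, 11.89, 11.95, 11.81 and 11.84 with banding and 10.79, 10.85, 10.73 and 10.81 with sham. Both groups were tight, and the difference was 1.04 ± 0.050, or 2.06-fold (limma adjusted p = 1.66e-05). Adam17 ranged from 9.66 to 9.88 with banding and from 9.39 to 9.64 with sham, a difference of 0.30 ± 0.072, or 1.23-fold (limma adjusted p = 0.0131). With sham replicate 4 and banding replicate 5 both left out, the adjusted p of Adam17 was 0.0594. On its other probe sets, tested singly over all 9 arrays, Adam17 differed by 0.55 and 0.54 (limma adjusted p = 0.00102 and 0.000238). Adam15 ranged from 8.52 to 8.81 and from 8.05 to 8.52, with overlap at sham replicate 3, and its difference was 0.49 ± 0.12, or 1.41-fold (limma adjusted p = 0.0134). It was 0.83 on the probe set used when those prone to cross-hybridisation were left out.

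The 3 ADAM genes whose products lack an active catalytic site went the other way or were dim. Adam11 and Adam22 fell and Adam23 was dim in both groups. Adam22 encodes a receptor of neurons and other cells for the secreted protein LGI, and Adam11 is known from nervous tissue.

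Adam11 values were 4.39, 4.44, 4.15, 3.29 and 3.81 with banding and 4.75, 5.03, 6.09 and 5.30 with sham. The groups did not overlap and the banding mean was dim. Adam11 fell by 1.28 ± 0.34 on the log2 scale, at least 2.14-fold (limma adjusted p = 0.0192), and by 0.70 when its probe sets were averaged. Without sham replicate 4 it fell by 1.28 (adjusted p = 0.0463), and without that array and banding replicate 5 the adjusted p was 0.0947. Adam22 ranged from 6.10 to 6.53 with banding and from 6.66 to 7.41 with sham. It fell by 0.74 ± 0.17, or 1.68-fold (limma adjusted p = 0.00957), by 0.39 when its probe sets were averaged and by 0.62 without sham replicate 4. The other probe sets of Adam11 and Adam22 were dim in both groups, which lowers the averaged differences.

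The list of ADAM genes known chiefly from the testis and epididymis had 16 measured members. All 16 were dim in both groups, and none exceeded 2.58 with banding or 2.63 with sham.

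**Figure D3:**
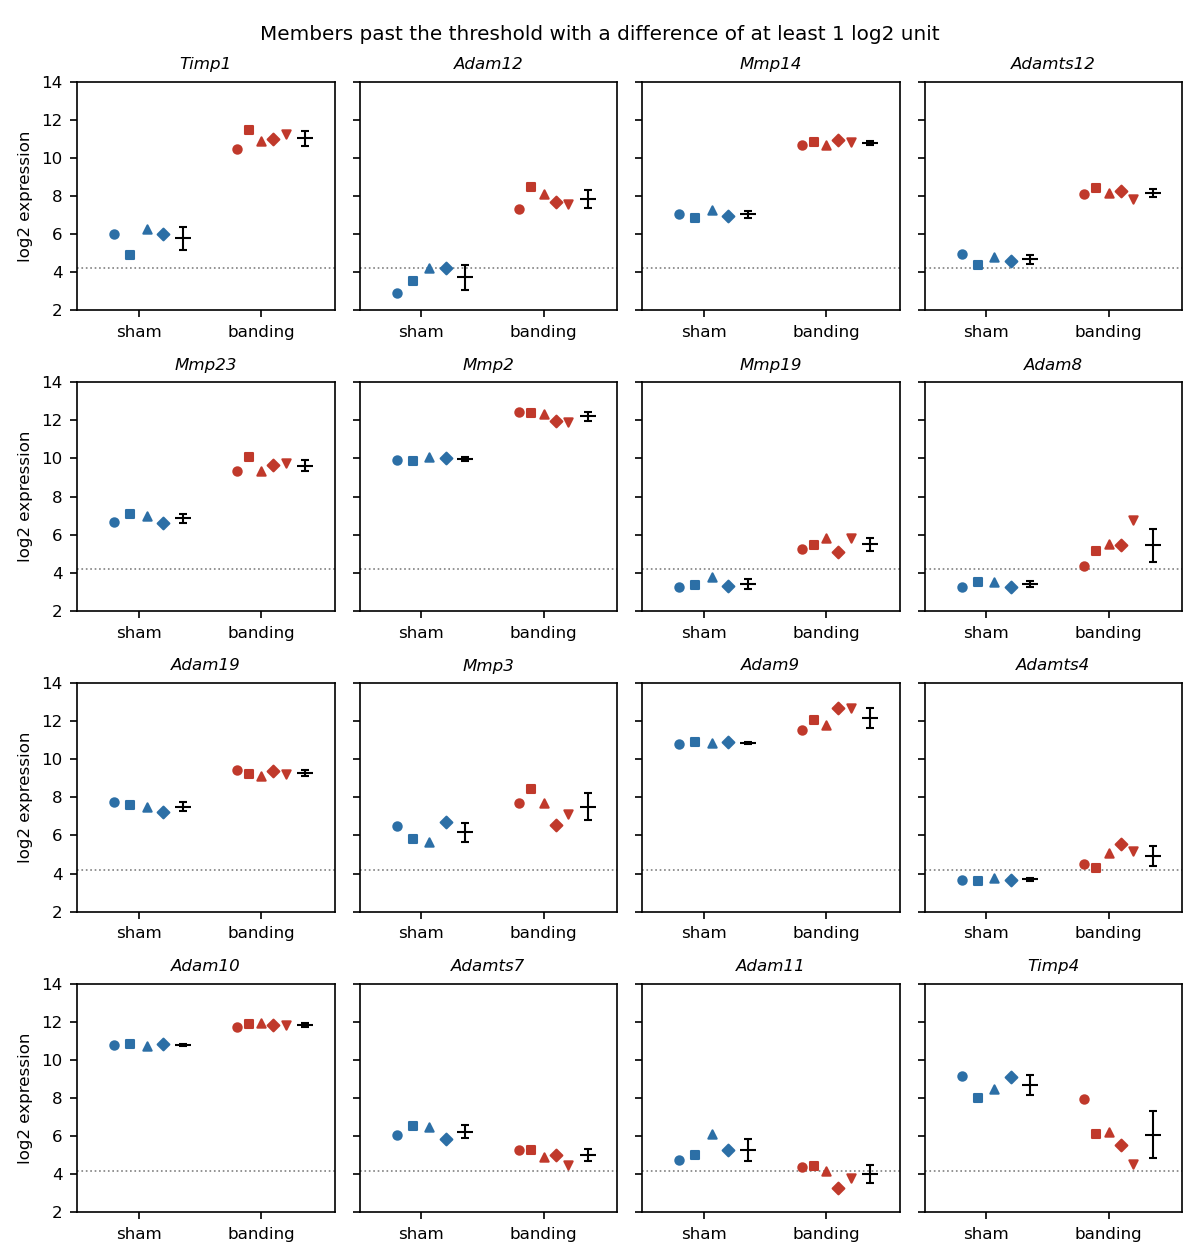
Log2 expression on each array of the 16 members that passed with a difference of at least 1 log2 unit, sham in blue (4 arrays) and banding in red (5 arrays), with a marker shape per replicate number. Black bars give the mean and SD, and the dotted line is the dim level of 4.20. The panels run from Timp1, with the largest rise, to Timp4, with the largest fall, and the groups overlap in Mmp3 alone.

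Adamts7 and Adamts12, whose products cut cartilage oligomeric matrix protein, moved in opposite directions. Adamts12 values were 8.07, 8.41, 8.15, 8.26 and 7.85 with banding and 4.92, 4.39, 4.77 and 4.57 with sham. Sham values were a little above the dim level and all banding arrays were far higher. The difference was 3.49 ± 0.14, or 11.2-fold (limma adjusted p = 1.09e-05). Averaged over its probe sets it was 1.74, since the other probe set stood at the floor on all arrays.

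Adamts7 values were 5.30, 5.30, 4.92, 5.02 and 4.49 with banding and 6.06, 6.54, 6.48 and 5.87 with sham. The groups did not overlap. Adamts7 fell by 1.23 ± 0.21, or 2.35-fold (limma adjusted p = 0.00261), and by 1.35 without sham replicate 4.

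Of the 7 ADAMTS genes of large proteoglycans, which encode the enzymes that cut aggrecan and versican, 2 rose, 1 fell and 4 did not pass. Over all 15 Adamts genes, 33.3% rose and 13.3% fell, against 18.4% of all genes higher and 20.0% lower. Adamts4 values were 4.49, 4.28, 5.09, 5.55 and 5.17 with banding and 3.69, 3.62, 3.77 and 3.69 with sham. All sham arrays were dim and all banding arrays lay above them. The difference was 1.22 ± 0.26, at least 1.64-fold (limma adjusted p = 0.00676), and with all values raised to the dim level 0.72 (adjusted p = 0.0693).

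Adamts9 ranged from 7.99 to 8.43 with banding and from 7.45 to 7.90 with sham, a difference of 0.70 ± 0.13, or 1.63-fold (limma adjusted p = 0.00307). Its other probe sets, both above the dim level, differed by 0.93 and 0.049 without passing when tested singly (limma adjusted p = 0.116 and 0.438). Adamts5 ranged from 9.13 to 9.55 with banding and from 9.54 to 9.91 with sham, so the groups overlapped slightly. It fell by 0.37 ± 0.10, or 1.29-fold (limma adjusted p = 0.0251). The adjusted p of Adamts5 was 0.0574 without banding replicate 3, and 0.0525, 0.0660 and 0.0640 without sham replicate 2, 3 or 4.

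Adamts1, Adamts8 and Adamts15 were above the dim level without passing, and Adamts20 was dim. Adamts1 values were 8.65, 8.67, 8.79, 9.71 and 9.80 with banding and 8.55, 8.13, 8.17 and 8.48 with sham. The groups did not overlap, but banding replicates 4 and 5 stood about 1 log2 unit above the other banding arrays. The difference was 0.79 ± 0.30 (limma adjusted p = 0.0766). It passed when limma was refitted on the 11013 genes above the dim level in at least 1 group (adjusted p = 0.0283). That refit changed the variance estimates as well as the adjustment. Adamts8 had the same value, 4.85, on 3 banding and 3 sham arrays, and its difference was 0.64 ± 0.37 (limma adjusted p = 0.246). Adamts15 ranged from 5.34 to 6.46 with banding and from 5.22 to 6.65 with sham, a difference of 0.14 ± 0.37 (limma adjusted p = 0.906), which turned to -0.052 without sham replicate 2.

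Adamts6 and Adamts10, whose products act on fibrillin microfibrils, both rose. Adamts6 ranged from 4.63 to 5.52 with banding and from 3.72 to 4.32 with sham, where its mean was dim, a difference of 0.91 ± 0.20, at least 1.75-fold (limma adjusted p = 0.00736). Adamts10 ranged from 7.58 to 8.16 with banding and from 6.95 to 7.05 with sham, a difference of 0.84 ± 0.12, or 1.79-fold (limma adjusted p = 0.000849). Averaged over their probe sets the differences were 0.58 for Adamts6 and 0.47 for Adamts10, with the other probe set of each dim in both groups. Adamts3, which encodes a procollagen N-proteinase, ranged from 5.93 to 6.85 and from 6.00 to 6.50, a difference of 0.19 ± 0.20 (limma adjusted p = 0.548). Adamts16, Adamts18 and Adamts19 were dim in both groups.

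Many members were measured by more than 1 probe set, which reads other stretches of the same transcript. Of the 116 probe sets of the members, 25 were second or further probe sets that lay above the dim level in at least 1 group. They belonged to 14 genes, all of which had passed. Some of them, as for Adam12 and Adamts4, cleared that level with banding only, so their direction is in part set by this filter. Another 14 further probe sets of members above the dim level were dim in both groups and left out. Among these, a probe set of Mmp16 differed the other way from its gene (-0.010). The 25 that were kept all differed in the same direction as the probe set used for the gene, and 20 of them passed when all probe sets were tested singly. Timp4 differed by -2.60 on its second probe set and Mmp14 by 3.79 and 2.88 on its other 2. Timp2 was larger on its 4 other bright probe sets, at 1.11, 0.75, 0.82 and 1.29, than on the one with the highest level. The probe sets of 1 gene read the same RNA and are no further replicates.

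**Figure D4:**
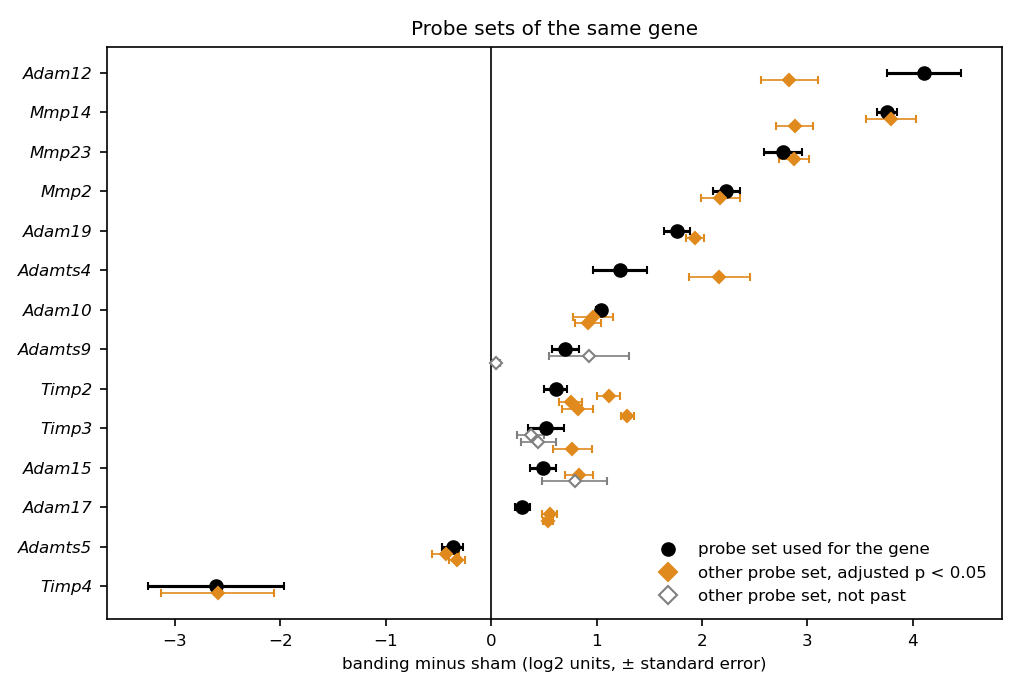
Difference between banding and sham (log2 units) with its standard error for the 14 genes with further probe sets above the dim level in at least 1 group. Black points are the probe set used for the gene, filled orange diamonds the 20 further probe sets that passed when tested singly and open diamonds the 5 that did not. All diamonds lie on the same side of 0 as their black point.

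The metalloproteinases act within a wider system, given here from lists of genes chosen for their known roles. In the plasminogen system, which activates several proenzymes, 4 of 9 measured genes rose, 1 fell and 4 did not pass, with a median difference of 0.38. Plat, the tissue plasminogen activator, rose 3.18-fold (1.67 ± 0.12, limma adjusted p = 6.16e-05), and Anxa2 and S100a10, which together bind plasminogen at the cell surface, rose 4.26-fold and 2.46-fold. Plg, the plasminogen gene itself, is made chiefly by the liver. It averaged 7.83 ± 1.95 (SD, n = 4) with sham and stood at the floor on all banding arrays, a fall of at least 12.4-fold (limma adjusted p = 0.00119). On the sham arrays Plg was 7.62, 6.94, 6.15 and 10.6, highest on sham replicate 4 like the hepatocyte markers, and the part of liver RNA in its fall was not tested. Without sham replicate 4 the sham mean was 6.90 and the fall at least 6.52-fold (limma adjusted p = 0.000158).

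Of 12 genes for activators, anchors and clearance of metalloproteinases, 6 rose, 2 fell and 4 did not pass, with a median difference of 0.48. Cd44, a hyaluronan receptor that holds metalloproteinases at the cell surface, rose 4.45-fold, Itgav, an integrin chain, 2.72-fold, and Lrp1, the receptor that clears proteinases and their inhibitors, 2.07-fold. Bsg, the membrane protein known as an inducer of metalloproteinases, fell 1.41-fold (-0.49 ± 0.063, limma adjusted p = 0.000635).

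Among 9 partners of ADAM10 and ADAM17, 6 rose, 1 fell and 2 did not pass (median difference 0.66). The tetraspanins Tspan14 and Tspan17, which guide ADAM10 through the cell, rose 2.34-fold and 3.54-fold, and Rhbdf1 and Frmd8, which carry ADAM17 to the surface and keep it there, rose 1.93-fold and 1.58-fold. Of 19 measured membrane proteins that these enzymes shed, 10 rose, 1 fell and 8 did not pass (median 0.64). Both tumour necrosis factor receptors rose, Tnfrsf1a 2.37-fold and Tnfrsf1b 2.82-fold, as did the chemokine gene Cxcl16, 3.72-fold, and the Notch ligand gene Jag1, 2.52-fold. The arrays measured transcripts, so no shedding was measured.

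Of 15 ADAMTS-like genes and ADAMTS substrates, 7 rose, 1 fell and 7 did not pass (median 0.35). Comp, the substrate shared by the products of Adamts7 and Adamts12, rose 16.5-fold (4.05 ± 0.25, limma adjusted p = 3.64e-05). Vcan, the proteoglycan versican, rose 3.86-fold, Fbln2 4.55-fold and Thbs1, a thrombospondin, at least 48.6-fold. In the tolloid group 2 of 7 genes rose and 5 did not pass (median 0.0068): Bmp1, a procollagen C-proteinase, 3.56-fold, and Pcolce, its enhancer, 5.02-fold. All these shares stand beside 18.4% of all genes higher and 20.0% lower.

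The 5 members that fell share the direction of the liver transcripts and of the cardiomyocyte markers that were lower. The part of either in them was not tested. Sham replicate 4, highest in the hepatocyte mean, was the highest sham array for Adam22 and the lowest for Adamts7. It was neither for Timp4, Adam11 and Adamts5. With sham replicate 4 left out, 22 members rose and 4 of these 5 still passed, all but Adamts5. Without sham replicate 4 and banding replicate 5, 19 members rose and 2, Adamts7 and Adam22, fell. The sham arrays kept in both fits still exceeded every banding array in the mean of the hepatocyte markers. Neither fit therefore removes the liver difference between the groups.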

How the data were processed

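Total RNA of 9 right ventricle samples was hybridised to one-colour Affymetrix mouse arrays. The authors deposited 1 log2 expression value per probe set and array, and RMA and GCRMA are named in the submitters' processing notes, with no version, role or order. Both methods correct background and normalise between arrays. In the deposited values the array median over all probe sets still ran from 4.70 to 4.74 with banding and from 4.54 to 4.69 with sham. The values ran from 2.20 to 16.4, from which the log2 scale was inferred. Probe sets were named from GEO's platform annotation: of 45101, 34945 named 1 gene, 932 several and 9160 none, and 64 were controls. Each gene was represented by its brightest probe set, by the mean of all 9 arrays, with no filter and no further normalisation.

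Banding was compared with sham with lmFit and eBayes of limma 3.58.1 (R 4.3.3), two-sided, with p-values adjusted by Benjamini-Hochberg over the 18193 genes and a threshold of 0.05, after the fit had been tested on simulated data. Timp pairs were compared by exact permutation over samples, adjusted over 6 pairs. No batch is named in the sources used here, and precision is limited by the number of arrays.

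All members could be named. Array values are given for members past the threshold by at least 1 log2 unit and for the Timp genes; those of Mmp12 and Adamts1 were added after their values were seen. Up to 4 genes of each related list, those with the smallest adjusted p, were named, and markers only by counts besides Myh6, Tnnt2 and Alb. The members, lists, motifs and alternatives were chosen with earlier results of these data known. Alternatives changed the probe set rule, the filter on dim genes, the normalisation, the variance model, the threshold, the arrays left out and the use of the replicate number as a block.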

Additional observations from a re-analysis of the deposited data

Results flagged for a closer look

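In 3 of the 64 groups of arrays looked at (32 members above the dim level, 2 groups each), 1 array stood apart from the rest of its group by Dixon's gap test. Chance marks about 1 in 20 such groups, so this number is no more than chance gives. Adamts8 was 4.09 on sham replicate 2 and 4.85 on the other 3 sham arrays. Adamts9 was 7.99 on banding replicate 5 and between 8.36 and 8.43 on the other banding arrays. Mmp19 was 3.80 on sham replicate 3 and between 3.25 and 3.34 on the other sham arrays, all under the dim level.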

How the results depend on the processing

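Of the 27 members that passed, 15 passed under all 19 alternatives that refitted the data at the same threshold, and 24 passed whichever single array was left out. The exceptions there were Mmp3, Timp3 and Adamts5. Leaving out 1 array gave 20 to 22 members higher and 4 to 5 lower, and 6270 to 6701 genes over all. Adamts15 ran from -0.052 (without sham replicate 2) to 0.42 (without sham replicate 1), and no other member above the dim level changed sign under any alternative. Members lower numbered 2 without sham replicate 4 and banding replicate 5, and 2 at an adjusted p of 0.01. With a minimum of 1 log2 unit, 2496 genes passed, among them 13 members higher and 3 lower. With the replicate number as a block, 5277 genes, 16 members higher and 2 lower passed, and Adam11, Adam15, Adam22, Adamts4, Adamts5, Mmp16, Mmp3, Timp2 and Timp3 did not. Banding replicate 5 has no sham partner, so it adds nothing to the difference in that fit. Timp4, for example, differed by -2.23 both there and without that array. Deviations of same-numbered arrays from their group means correlated between -0.034 and 0.036. This shows no shared deviation, but it cannot tell whether same-numbered samples were handled together. The Timp pairs kept their calls under all alternatives run. The cause of these changes was not tested. Values near the floor of 2.20 bound a gene from above only, which limits the 33 members dim in both groups.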

Other observations

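Among the 32 members above the dim level in a group, 7 showed the same value (equal to 6 decimals) on several arrays. Adamts8 had 4.85 on 6 arrays, Adam15 had 8.52 on 2 banding arrays and 1 sham array, Adamts3 had 6.50 on 1 banding and 1 sham array, and Adam8, Adamts4, Adamts9 and Mmp16 each repeated a value on 2 sham arrays. Repeats among the members dim in both groups were not counted. All the values named lie above the floor, and those of Adam8, Adamts4 and Mmp16 are under the dim level. The standard errors of these genes treat such values as separate measurements.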
